A study of Gallus gallus with 4 samples.

Results

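After periodate oxidation, small RNA reads that lay mainly in the sense direction were found on 151 of 23216 annotated genes in the midbrain region of the chick embryo head. The rule that chose these genes asked for 10 or more reads in each of the 2 oxidized libraries and for fewer than 50% of the pooled oxidized reads on the reverse strand, that is, antisense to the gene. A further 40 genes had as many reads but 50% or more of them on the reverse strand, and these antisense genes serve as the nearest comparison. The members were thus chosen by their oxidized counts, so the oxidized levels, the oxidized strand and any change between oxidized and total libraries are given as descriptions, while the level and the strand in the total libraries did not enter the rule.

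The samples came from the midbrain region of wild-type chick embryos of stage HH9- (the Hamburger-Hamilton series), incubated for about 30 h at 37 °C, when the folds of the neural plate meet in the head. RNA of 19 to about 38 nucleotides was cut from a gel, and of each sample a portion was treated with sodium periodate and the remainder served as the total small RNA reference. This gave 2 oxidized and 2 total libraries, with 10981001 and 14081954 assigned reads in the oxidized pair and 17962725 and 14946049 in the total pair (replicates 1 and 2, an order kept throughout). Whether a replicate was a pool of its own is not labelled, so every test here measures only the spread between these libraries, which may be technical. In bulk RNA, fewer cells of a type and less RNA per cell cannot be told apart. The genes carry Ensembl IDs that no source used here pairs with names (0 of 151 IDs were found in the RefSeq gene table), so tissue markers could not be looked up, no gene is named, and members are called by their rank in the mean of the oxidized libraries.

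Periodate attacks the 3′ end of an RNA whose last ribose is free, and a 2′-O-methyl group on that ribose protects it. PIWI-interacting RNAs (piRNAs) carry this group, which the methyltransferase HENMT1 adds after a PIWI protein has bound the RNA. Most is known of piRNAs antisense to transposable elements (TEs), which guide PIWI proteins to TE transcripts, whereas sense small RNAs cut from the transcripts of ordinary genes are known as genic piRNAs in animal germ lines. MicroRNAs of animals lack the group and are lost upon oxidation.

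The members held nearly all reads that fell on genes after oxidation, and most gene reads of the total libraries too. The rule took genes with reads in both oxidized libraries, so their share after oxidation is in part built in. They took 724735 of 765959 gene reads in oxidized replicate 1 and 1092012 of 1150005 in oxidized replicate 2, or 94.8% ± 0.240 (mean ± SD, n = 2). In the total libraries they took 629135 of 717658 and 684654 of 766924 gene reads, or 88.5% ± 1.14 (n = 2). The antisense genes held far less, 13868 and 18600 reads after oxidation and 5811 and 4907 in the total libraries. The remaining 23025 genes held 27356 and 39393 reads after oxidation and 82712 and 77363 in the total libraries.

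As a share of all assigned reads, the members made up 6.60% and 7.75% of the oxidized and 3.50% and 4.58% of the total libraries. The exact 95% binomial intervals of these shares were 6.59 to 6.61%, 7.74 to 7.77%, 3.49 to 3.51% and 4.57 to 4.59%. They cover counting error only, and take each read as a molecule of its own. The mean share was thus 1.78-fold higher after oxidation (7.18% ± 0.817 against 4.04% ± 0.763, n = 2 each), with no overlap between the groups. An exact permutation test over 2 against 2 libraries cannot give a two-sided p under 0.333, and none was run on a value that the rule fixes in part. The direction turned with the denominator: of reads other than microRNA (miRNA), members were 7.29% ± 0.833 after oxidation and 14.4% ± 0.0175 in the total libraries. MiRNA reads made up 1.59% of the oxidized and 71.9% of the total libraries on average, so folds per assigned read rest on that difference too. For scale, all TE reads were 50.4-fold higher after oxidation as a share of the library, and all miRNA reads 45.1-fold lower. All tRNA reads were 2.20-fold higher, all rRNA reads 1.22-fold higher and all other repeats 1.17-fold lower. The members summed lay between rRNA and tRNA. They did so without rank 1 too (1.38-fold higher), whereas without ranks 1 and 4 they lay above tRNA (2.45-fold higher).

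Within the members, reads were concentrated in very few IDs, and in 1 ID above all. ENSGALG00000039489 (rank 1) held 485879 and 789126 reads in the oxidized libraries and 382992 and 421459 in the total libraries. It alone made up 67.0% and 72.3% of member reads after oxidation and 60.9% and 61.6% in the total libraries. The 10 most abundant members of each library held 88.2% and 89.6% of member reads in the oxidized and 89.1% and 91.2% in the total libraries. To reach 90% of member reads took 13 and 11 members in the oxidized and 12 and 8 in the total libraries, and to reach 99% took 82 and 74, and 58 and 57. With rank 1 left out, the 10 leading members of the rest held 66.6% and 64.7% of what remained after oxidation.

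**Figure D1:**
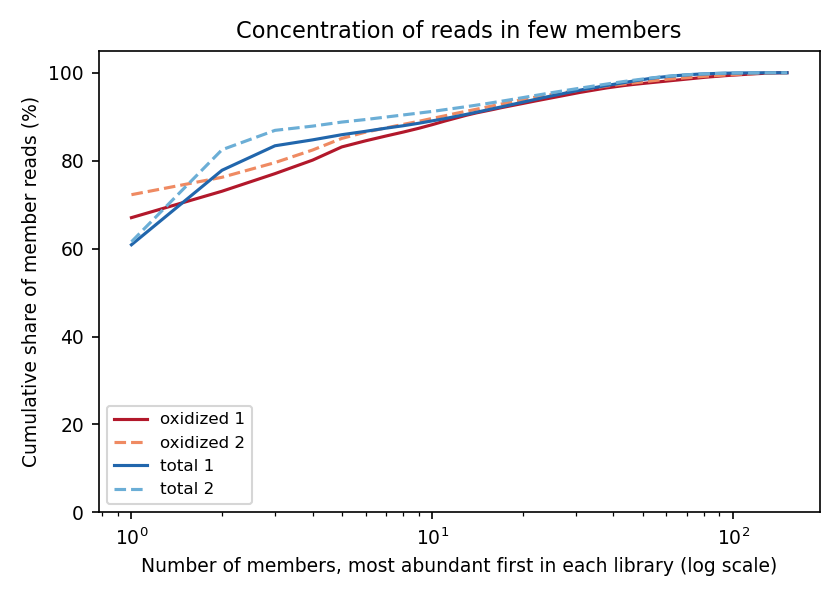
Cumulative share of member reads (%, vertical axis) against the number of members (log scale, most abundant first in each library), 1 line per library. All 4 lines start between 60.9% and 72.3% with a single member and lie between 88.2% and 91.2% at 10 members.

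The first member was abundant with and without oxidation. Its level was 50143 ± 8337 counts per 1000000 assigned reads (CPM, mean ± SD) after oxidation and 24760 ± 4863 CPM in the total libraries (n = 2 each), 2.03-fold higher in the oxidized libraries, which both lay above both total libraries. None of its oxidized reads was on the reverse strand, which allows a share of up to 0.000235% if each read is a molecule of its own. In the total libraries 1 and 3 reads were reverse. The fitted log2 fold change was 1.02 (SE 0.22, edgeR). Counted per library without miRNA it was -0.79 (SE 0.18), the opposite direction, and DESeq2, which gave 0.61 with an SE of 1.81, did not call it.

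Ranks 2, 3 and 5 behaved otherwise: they stood among the leaders only after oxidation. ENSGALG00000038243 (rank 2) had 43547 and 43220 reads in the oxidized and 777 and 966 in the total libraries. Its level was 3517 ± 634 CPM against 53.9 ± 15.1 CPM, 65.2-fold higher after oxidation (log2 fold change 6.03, SE 0.37, edgeR), and it ranked 36 among members in the total libraries. Rank 3 had 28997 and 31184 reads after oxidation and 985 and 1045 in the total libraries, which is 38.9-fold higher in mean CPM. Rank 5 went from 702 and 668 reads in the total to 21735 and 28779 in the oxidized libraries, 48.0-fold higher in mean CPM. In none of these 3 was there a reverse read after oxidation.

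Rank 4 ran against its neighbours. It had 22252 and 36515 reads after oxidation but 106587 and 143305 in the total libraries, where it was the second most abundant member. Its mean level was 2310 ± 401 CPM after oxidation and 7761 ± 2584 CPM in the total libraries (n = 2 each), 3.36-fold lower. It was the only one of the first 10 with reverse reads after oxidation, 551 and 452, and it had 471 and 380 in the total libraries, so that its reverse share was 1.71% after oxidation and 0.341% without. Ranks 1 and 4 together weigh on every sum: without them the members' share was 1.93% ± 0.0572 after oxidation and 0.790% ± 0.0178 in the total libraries, 2.45-fold higher, and without rank 1 alone it was 1.38-fold higher.

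Ranks 6 to 10 stood at 534 to 1015 CPM after oxidation and at 14.3 to 115 CPM in the total libraries, 8.80- to 37.3-fold higher. Rank 6 had the smallest of these folds, with 10104 and 15623 reads after oxidation and 2038 and 1753 in the total libraries. Rank 10 had the highest, with 5905 and 7462 reads against 203 and 259. It had no reverse read after oxidation, whereas 44 and 34 of its reads in the total libraries were reverse, a share of 16.9%. In every one of the first 10 the oxidized libraries lay on the same side of both total libraries, above them in 9 and below them in rank 4. Of all features tested 19.0% lay wholly above and 64.8% wholly below. The first 10 were ranked by their oxidized level, which favours lying above, so nothing is read from this count.

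**Figure D2:**
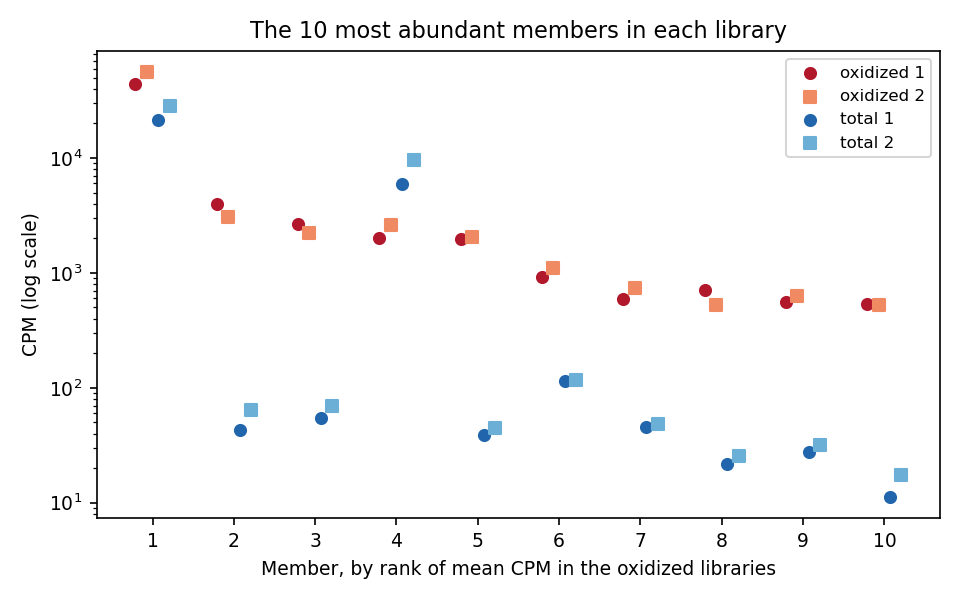
Level (CPM, log scale) of the 10 most abundant members in each of the 4 libraries, with red symbols for oxidized and blue for total libraries, circles for replicate 1 and squares for replicate 2. Rank 1 lies at 21321.5 CPM or more in all 4 libraries, rank 4 is higher in the total libraries, and the other 8 are 8.80- to 65.2-fold higher after oxidation.

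The remaining 141 members made up little of the reads. They summed to 7934 ± 165 CPM after oxidation and 7507 ± 134 CPM in the total libraries (n = 2 each), a ratio of 1.06, with the oxidized libraries at 7817 and 8051 CPM and the total libraries at 7413 and 7602 CPM. Singly they ranged from 1.05 to 507 CPM after oxidation (median 19.2) and from 0 to 1984 CPM in the total libraries (median 6.37). The median member of all 151 had 260 and 308 reads in the oxidized and 128 and 128 in the total libraries.

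Compared one by one in CPM, most members were higher after oxidation, and a smaller set was lower. For 104 members both oxidized libraries lay above both total libraries in CPM, for 24 both lay below, and for 23 the groups overlapped. Among all 1326 features tested in the 6 tables, 19.0% lay wholly above and 64.8% wholly below, and among the 760 genes tested 18.3% and 58.6% did. By edgeR's quasi-likelihood test (adjusted p under 0.05 over all features) 83 members were called higher, 11 lower and 57 neither, and all 151 passed the filter on low counts. Of all features tested 15.7% were called higher and 57.3% lower, and of the 760 genes tested 14.9% and 53.3%. Since a member had to have oxidized reads to be chosen, nothing is read from the gap between these shares. The median log2 ratio of mean CPM, with 1 CPM added, was 1.76 over members.

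These counts depended on the scaling and on the libraries. Leaving miRNA out of the library size shifts the median of all features by -1.74 on the log2 scale. In that fit 41 of 147 members tested were called higher and 41 lower (6.61% and 71.4% of all features). Per non-miRNA read both oxidized libraries lay above both total libraries for 75 members and below for 61. The share of all features was not counted on that scale, so nothing is read from the 75 and the 61. With the replicate number as a block edgeR called 21 members higher and 9 lower, with 7.47% and 12.5% of all features. DESeq2 called 26 and 0 (2 lower at an unadjusted p under 0.05), with 1.11% and 5.11% of all features. Without total replicate 1 the fit gave 16 higher and 5 lower (4.8% and 7.35% of all features), and leaving out total replicate 2 in its place gave 16 and 4 (4.91% and 7.42%). Dropping oxidized replicate 1 gave 102 and 23 (24.2% and 62% of all features), and dropping oxidized replicate 2 gave 94 and 25 of 149 tested (22.2% and 57.9%). Of the settings run, leaving out a total library gave the fewest higher calls and leaving out an oxidized library the most.

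**Figure D3:**
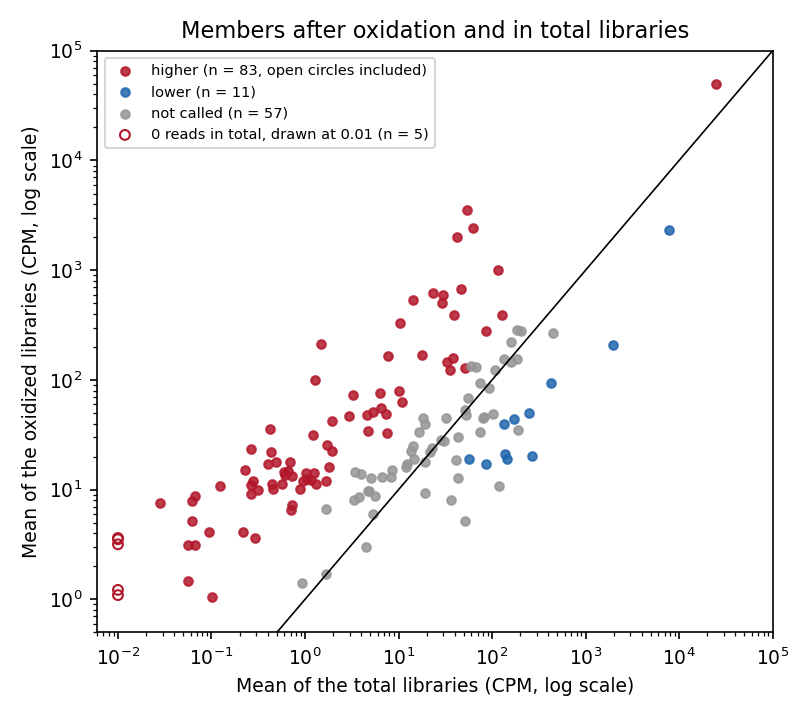
Mean level of each member in the total libraries (horizontal) and in the oxidized libraries (vertical), both in CPM on log scales, coloured by the edgeR call, with equal levels on the line. Of the 83 members called higher all but rank 1 lie at 127 CPM or less in the total libraries, the 11 called lower lie at 56.3 CPM or more in the total libraries, and the 5 open circles had no total read.

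The rule asks for reads after oxidation, so a member scarce in the total libraries is higher after oxidation nearly by construction, and nothing is read from its call. By the same rule a member needs many total reads to be called lower. None under 50 CPM in the total libraries was, so the abundance of the lower members there is no finding. Of the 40 members at 50 CPM or more in the total libraries, 7 were called higher, 11 lower and 22 neither. Of all features tested, at any level, 15.7% were called higher and 57.3% lower, and nothing is read from these counts either. The 11 lower members stood at 56.3 to 7761 CPM in the total libraries and were 2.94- to 13.2-fold lower after oxidation. ENSGALG00000040796 (rank 79) had the lowest fold change, with 313 and 172 reads after oxidation and 4865 and 3967 in the total libraries (log2 fold change -3.72, SE 0.57, edgeR). Without oxidized replicate 1 it was -4.46. ENSGALG00000030470 (rank 21) was the third most abundant member of the total libraries, with 35045 and 30157 reads there and 1023 and 4605 after oxidation (log2 fold change -3.24, SE 0.72, edgeR). Its oxidized libraries differed 3.51-fold in CPM, while its total libraries differed by a factor of 1.03, and the log2 fold change was -2.60 without oxidized replicate 1 and -4.41 without oxidized replicate 2. DESeq2 gave log2 fold changes of -3.96 (SE 1.86) and -3.83 (SE 1.82) for these IDs and called neither. The fourth member in the total libraries, rank 18, had 8463 and 6297 reads there and 2870 and 3887 after oxidation and was not called, and the fifth, rank 35, had 7363 and 6607 there and 769 and 1659 after oxidation, 4.54-fold lower in mean CPM. All of the 5 leaders of the total libraries but rank 1 had lower CPM in both oxidized libraries than in either total library. Of all features tested 64.8% lay wholly below, and of the genes tested 58.6% did. These leaders were picked by their total level, which favours a drop, so nothing is read from this count.

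Members differed widely in their fold between the oxidized and the total libraries. Set beside the tables as a whole, 18 members had a fold at or above that of all TE reads, counting those with no total read, 72 lay between TE and tRNA reads, 61 lay below tRNA reads, and 0 reached the 45.1-fold drop of all miRNA reads. The rule itself bars a member from a complete loss. It also bars members scarce in the total libraries from so deep a drop, so nothing is read from the 0. Among the 129 members with 10 or more reads summed over the total libraries, the fold ran from 0.0759 to 143 with a median of 2.45. The highest of these was rank 20, with 1443 and 4079 reads after oxidation against 6 and 39 in the total libraries.

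Few members were missing from the total libraries. Each total library had a read on 143 of the 151, and 5 members had none in either. These 5 had between 10 and 56 reads in an oxidized library. Against the 3 reads that a count of 0 allows over both total libraries (0.0912 CPM), they were at least 12.0- to at least 39.8-fold higher after oxidation. Such bounds, too, take each read as a molecule of its own. A further 6 members had a read in only 1 of the total libraries. Of the 10 genes with the highest level in the total libraries 9 were members, and of the highest 100 genes 63 were. Across members, log2 levels after oxidation and in the total libraries went together moderately (Pearson's r 0.69, Spearman's rho 0.71, n = 151 IDs that share 4 libraries and are not independent).

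Strand split the members into a large sense-only class and a small mixed class. After oxidation 122 members had no reverse read at all, and 29 had some. The rule used these oxidized values. The classes also hang on depth and on single reads. Rank 69 was mixed by 1 reverse read among its 377 and 306 oxidized reads. Rank 148 was sense-only on 10 and 27 reads, which allows a reverse share of up to 8.11% if each read is a molecule of its own. In the mixed class the pooled reverse share ran from 0.146% to 46.5% (median 18.0%), and its reverse reads were uneven between libraries: 18 of the 29 had them in both oxidized libraries, 5 in replicate 1 only and 6 in replicate 2 only. Rank 30 had 774 reverse among 1855 reads in oxidized replicate 1 and 7 among 1293 in replicate 2. In all, 9 members had a reverse share of 50% or more in 1 of the oxidized libraries although their pooled share was under 50%.

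The strand of the same genes in the total libraries, which the rule did not use, was mostly sense as well. The total libraries are the untreated remainder of the same samples and hold oxidation-resistant RNA too. Likeness to the oxidized strand is thus in part built in and is no independent check. Of all member reads 0.382% and 0.263% were reverse in the total libraries, against 60.9% and 65.5% for the antisense genes and 13.7% and 12.6% for the remaining genes. Rank 1 holds most of these reads, and without it the members' share was 0.975% and 0.684%. Of the 129 members with 10 or more total reads, 92 had no reverse read, 114 (88.4%) were under 10% reverse and 1 was at 50% or more. Sense reads were usual in the other genes too: of 2587 remaining genes with as many total reads 1826 (70.6%) were under 10% reverse. Of 23 antisense genes with as many total reads, 15 (65.2%) were at 50% or more. The single member at 50% or more was rank 30, with 887 of 1199 and 527 of 992 reads reverse.

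The sense-only and the mixed class also differed in the total libraries. Among sense-only members with 10 or more total reads, 108 of 114 were under 10% reverse there, and among mixed members 6 of 15 were. Their levels differed as well. The median sense-only member stood at 23.0 CPM after oxidation and 13.8 CPM in the total libraries (n = 122), and the median mixed member at 15.2 and 0.407 CPM (n = 29). All 5 members without a total read were mixed. Neither class was compared by a test, since oxidized reads defined them.

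**Figure D4:**
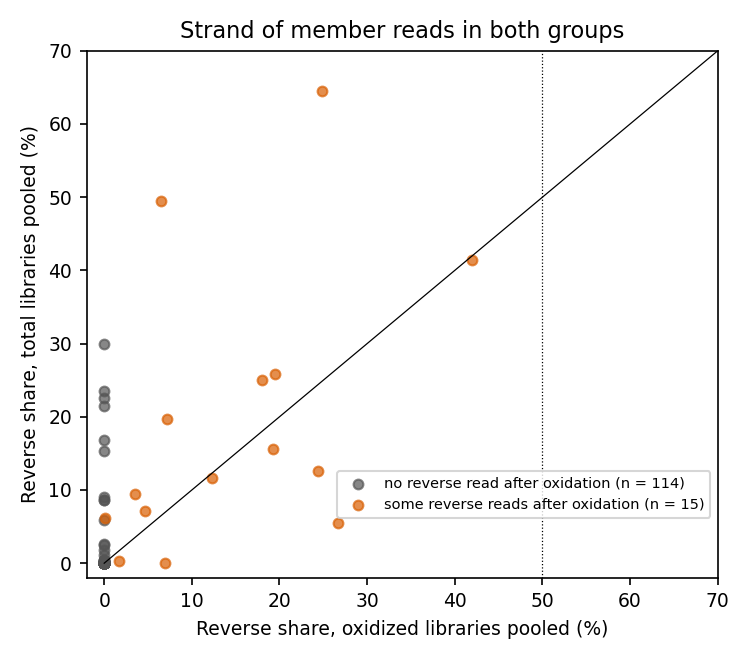
Reverse share of the reads of each member (%) in the pooled total libraries (vertical) against the pooled oxidized libraries (horizontal), for the 129 members with 10 or more total reads, 114 of them with no reverse read after oxidation (grey) and 15 with some (orange). The dotted line marks the 50% of the rule, the solid line equal shares, and 1 point lies above 50% in the total libraries.

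Between the oxidized libraries the levels of most members lay within a factor of 2, a wider spread than between the total libraries. The rule asked for reads in both oxidized libraries and so favours members that agree. Across all 151 members the log2 levels (CPM plus 1) of the oxidized libraries had a Pearson's r of 0.92 and a Spearman's rho of 0.86, and those of the total libraries 0.99 and 0.99 (these describe IDs within the same libraries and carry no p). For 82 members the oxidized libraries were within a factor of 1.5 of each other and for 111 within a factor of 2, and neither replicate was the higher more often, as 76 of 151 were higher in replicate 2. Of the 115 members with 10 or more reads in each total library, 109 were within a factor of 2 between the total libraries and 86 between the oxidized ones. The first 10 members differed by at most a factor of 1.35 between the oxidized libraries.

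Binned by their level in the total libraries, which the rule did not use, the members differed little in this respect. The oxidized libraries were within a factor of 2 for 28 of 40 members under 1 CPM in the total libraries (70%), for 27 of 38 from 1 to under 10 CPM (71.1%), for 26 of 33 from 10 to under 50 CPM (78.8%) and for 30 of 40 at 50 CPM or more (75%). Binned by the lower of the 2 oxidized read counts, they did differ, though such bins gather unequal members at the low end. With 10 to 99 reads there, 17 of 41 members were within a factor of 2 (41.5%). From 100 to 299 reads 38 of 46 were (82.6%), from 300 to 999 reads 25 of 29 (86.2%) and from 1000 reads 31 of 35 (88.6%). The widest gap was at rank 116, with 225 and 16 oxidized reads, an 18.0-fold difference in CPM, although its total libraries held 2255 and 1689 reads. Rank 102 leaned the other way, with 32 and 327 oxidized reads against 107 and 109 in the total libraries.

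**Figure D5:**
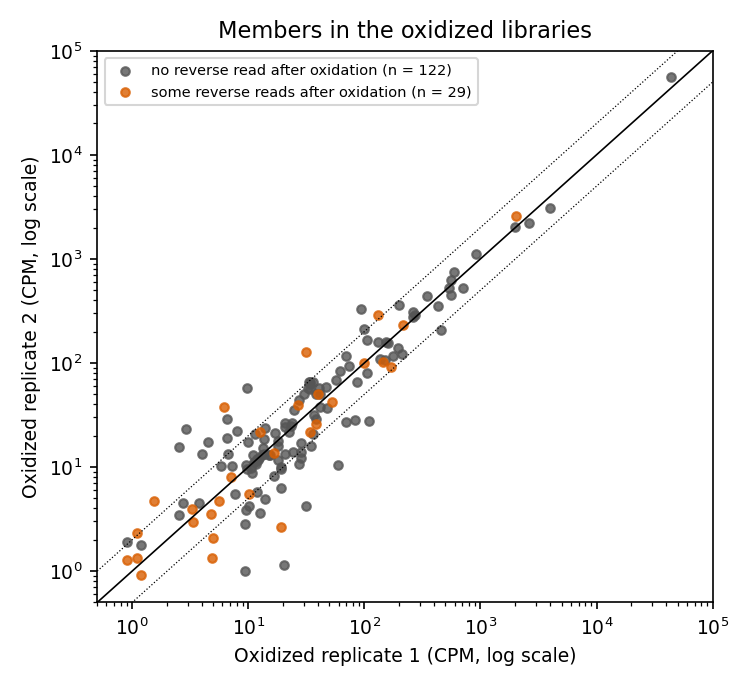
Level of each member in oxidized replicate 2 against replicate 1 (CPM, log scales), with equal levels on the solid line and a factor of 2 on the dotted lines, grey for the 122 members without and orange for the 29 with reverse reads after oxidation. The first 10 members lie close to the line, and the widest gap is the 18.0-fold one at rank 116.

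To see how far 1 oxidized library foretells the other, genes were also chosen in a single library and then read in the one that had not chosen them. The same rule in oxidized replicate 1 alone chose 388 sense genes, of which 153 (39.4%) had 10 or more reads in replicate 2. These 153 carried 96.6% of the reads of all 388 in replicate 1, and 142 of them (92.8%) were under 50% reverse in replicate 2 as well. In the other direction 438 genes were chosen, 149 (34.0%) had 10 or more reads in replicate 1 and 142 of these (95.3%) were under 50% reverse there. Most genes with 10 or more reads in a library were under 50% reverse anyway. In replicate 2 they were 438 against 64 antisense genes, and in replicate 1 388 against 58, so little is read from these shares. Being seen again hung on the read count. All 34 genes with 1000 or more reads in replicate 1 recurred in replicate 2, as did 37 of 42 with 300 to 999 reads (88.1%), but only 52 of 189 with 100 to 299 reads (27.5%) and 30 of 123 with 10 to 99 (24.4%). Chosen in replicate 2, the figures were 40 of 40, 39 of 47, 45 of 210 and 25 of 141. Antisense genes chosen in 1 library recurred in 38 of 58 and 42 of 64 cases, and 7 and 11 of these were under 50% reverse in the second library.

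A read need not stand for a molecule of its own in these libraries. Genes with 20 or more reads in 1 oxidized library and none in the other had a median of 122 reads in replicate 1 (202 genes) and 130.5 reads in replicate 2 (218 genes). If these medians are taken as the reads of a single molecule, which was not tested, the threshold of 10 reads asks for no more than 1 molecule in each library. With 300 or more reads required in both libraries there would be 64 members in place of 151, and they would hold 7.06% of oxidized reads in place of 7.18%. Near the read threshold, 10 members had 10 to 19 reads in the lower oxidized library, with means of 1.05 to 10.8 CPM after oxidation, and 96 genes under 50% reverse fell short with 1 to 9 reads, with means of 0.0810 to 30.6 CPM. Near the strand threshold, the 4 members from 40% upward had reverse shares of 40.0%, 40.2%, 41.9% and 46.5%, and the nearest antisense genes 52.2%, 53.8% and 59.7%.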

How the data were processed

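For every library the authors deposited unnormalized read counts, made with featureCounts on galGal6 per the submitters' processing notes. The aligner, the annotation and the treatment of multi-mapping reads are not given in the sources used here, so genes with near-identical copies or overlapping features may share reads. There are 6 tables per library (genes, TE families, miRNA, tRNA, rRNA, other repeats), and unstranded and reverse counts of genes were used. Reverse was read as antisense because at most 0.00257% of tRNA reads were there. Antisense genes reached 102% reverse in oxidized replicate 2, so reverse counts are not strictly part of unstranded ones, although 0 of 151 members had more reverse than unstranded reads.

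Library size was the summed unstranded count of the 6 tables, and CPM are counts divided by it. All features were fitted together with edgeR 4.0.16 (R 4.3.3; glmQLFit, glmQLFTest, default expression filter, no TMM factor, since most features were not assumed unchanged), Benjamini-Hochberg adjusted at 0.05. The pipeline was run on simulated data with the same spread in both groups and as many features raised as lowered. The real libraries differ from that on both counts, so the run does not give the error rate here. TMM would shift the median log2 fold change of all features by -0.17. DESeq2 1.42.0 was an alternative. The SE given with edgeR is the absolute log2 fold change divided by the square root of the quasi-likelihood F statistic. DESeq2 gives the SE of its own model, so the SEs of these methods are not the same measure. The study divided each sample into an oxidized and a total portion, but no label ties same-numbered libraries to each other. Their deviations from the group means barely correlated (r = 0.044 over 1326 features), which with 2 libraries per group cannot exclude pairing. The main fit leaves the replicate number out because no label gives the pairing, and the fit with it as a block is an alternative. IDs are printed for the 2 members most abundant after oxidation among those called higher and the 2 with the lowest fold change among those called lower with 20 or more reads in each total library, and others go by rank. The members and the lists were chosen with earlier results of these data known. Sequences are not shown, because no gene could be matched to one.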

Additional observations from a re-analysis of the deposited data

How the results depend on the processing

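The number of members called higher (83 by edgeR) was 41 without miRNA in the library size, 21 with the replicate block, 26 with DESeq2 and 16 to 102 when 1 library was left out and its lone partner was assumed to vary like the other group. The number called lower (11) was 41, 9 and 0 (DESeq2, 2 at an unadjusted p under 0.05) and 4 to 25. No other setting moved either count by over 1.5 times. The other settings included the fit on oxidized counts divided by the median reads given above. It called 56 of 126 members tested higher and 14 lower (18.5% and 22.9% of all features). The share of all features called higher moved too: 15.7% in the main fit, 6.61% without miRNA, 7.47% with the block and 1.11% with DESeq2. For lower calls these were 57.3%, 71.4%, 12.5% and 5.11%. Nothing about the members is read from these changes. The 41, 21, 26 and 16 higher members were all among the 83, and with miRNA left out 1 of the 83 was called lower instead, ENSGALG00000039489 (log2 fold change -0.79). The replicate block ended no call of the 4 IDs printed here. The number of members (151) was 64 with 300 or more reads required, and 388 and 438 when chosen in oxidized replicate 1 or 2 alone. The fold of the summed share (1.78) was 0.507 with miRNA left out, 1.38 without rank 1, 2.45 without ranks 1 and 4, and 1.57 to 2.05 leaving out 1 library, settings chosen after seeing the data. The share on the 10 leading members (88.9%) was 65.7% without rank 1 and 90.1% in the total libraries (also chosen after seeing the data). The reverse share in total libraries (0.322%) was 0.829% without the leading member, and its median over members was 0. Pearson's r between the oxidized libraries (0.923) was 0.95 with 10 CPM added and 0.946 with 100 or more reads required. The median log2 ratio (1.76) was 2.12 with 0.1 CPM added, 0.68 with 10 CPM and 0.30 with miRNA left out. The cause of these changes was not tested. Of the members, 41 had under 100 reads in at least 1 of the oxidized libraries. Across these 41, Pearson's r was 0.157 between the oxidized and 0.985 between the total libraries. They were chosen by their oxidized reads, which itself narrows their oxidized levels, and how far depth limits their values was not tested.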

Other observations

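For 3 members, singled out after their values were seen, a row of the miRNA table holds the same count in each of the 4 libraries. Rank 12 had 3769 and 6211 reads in the oxidized and 668 and 609 in the total libraries, and rank 24 had 1756 and 2177 against 630 and 619, and both were called higher by edgeR (log2 fold changes 3.33 and 2.04). Rank 44, with 518 and 822 reads against 874 and 827, was not called (log2 fold change 0.02). None of the 3 had a reverse read after oxidation, and leaving them out changed the members' share of oxidized reads from 7.18% to 7.12%.

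Genes abundant in the total libraries that missed the rule differed in their oxidized reads. The most abundant non-member in the total libraries, at 282 CPM, had 4171 and 4966 reads there and 7 and 183 after oxidation. The next had 2982 and 2279 reads there and 5 and 405 after oxidation. Others were nearly absent from both oxidized libraries: the third had 1775 and 1588 reads in the total libraries against 2 and 1, and the fourth 2061 and 1313 against 0 and 2. In oxidized libraries 312 genes had reads in both and 669 in only 1.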
